A study of Mus musculus with 8 samples.

Results

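Constitutive co-bound sites were the PU.1 peaks of PuER cells that overlapped, by at least 1 bp, a PU.1 peak of the empty-vector cells and a CEBPA peak of each of the lines. There were 1578 of them among the 15683 PU.1 peaks of PuER cells. They were chosen by the peak calls themselves, so their presence in all 4 lists, at 10.1% of the PU.1 peaks tested, is a description from which nothing is read. They made up 53.1% (95% confidence interval 51.3–55%) of the 2969 PU.1 peaks shared between the lines and 29.8% (28.6–31.1%) of the 5288 PU.1 peaks of the empty-vector cells. Their share was smaller on the CEBPA side, with 7.67% (7.31–8.04%) of 20583 CEBPA peaks in PuER cells and 6.04% (5.76–6.34%) of 26119 in empty-vector cells.

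The study used X18.1.1, a murine AML line induced by radiation, in which 1 *Pu.1* allele is deleted and the other is mutant, with an amino acid exchange where PU.1 contacts DNA and a deletion in its PEST domain. Clonal lines had been transduced by retrovirus with the empty vector (PU.1−) or with PuER (PU.1+), in which wild-type PU.1 is joined to a tamoxifen-responsive domain of the oestrogen receptor. The labels put both lines in 100 nM OHT (4-hydroxytamoxifen) for 2 h, whereas the study also mentions an untreated time point, so the lists were taken as 2 h. ChIP-Seq with an antibody against PU.1 or against CEBPA gave 1 list of peaks for each antibody and line. PU.1+ cells also kept the mutant protein, and the PU.1 antibody detects both forms, so a PU.1 peak of PU.1+ cells cannot be ascribed to either of them. Each line was 1 clone and each library was single, so differences between lines and between clones cannot be told apart. The lists held coordinates only, every peak was 400 bp wide, and the read depth behind them is unknown, so absence from a list does not show absence of binding. They came from bulk cultures, in which binding in every cell and binding in a part of the cells cannot be told apart, and 4 overlapping peaks do not show that both proteins were on the same molecule of DNA. Intervals cover counting error over sites only.

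PU.1 is the ETS-family transcription factor that myeloid and B cells depend on, and it contacts DNA that carries a GGAA core. CEBPA belongs to the bZIP family, binds as a dimer to sites built from a pair of TTGC-like arms, and is needed for granulocyte and monocyte production. In normal myeloid cells both are known to meet at many enhancers of lineage genes, often beside RUNX1 or AP-1.

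The sequences that follow show how ETS and CEBP sites were arranged at 3 of the co-bound sites where the 4 centres came closest together and the central 80 bp held both motifs. Capitals mark GGAAGT (ETS) or TTGCNNAA (CEBP), on either strand, and each line is the plus strand of GRCm38 (mm10), read 5′ to 3′.
Degs1 promoter, chr1:182283400-182283479: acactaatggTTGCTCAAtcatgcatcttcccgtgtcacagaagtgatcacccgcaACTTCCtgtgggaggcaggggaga
Intergenic site, chr4:54516069-54516148: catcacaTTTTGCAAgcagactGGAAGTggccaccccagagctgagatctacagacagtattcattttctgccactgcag
Site near Tmem170b, chr13:41600126-41600205: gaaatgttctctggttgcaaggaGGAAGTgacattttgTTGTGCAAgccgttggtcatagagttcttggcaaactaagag
At these places the 4 centres spanned 7 bp, 8 bp and 9 bp, respectively. The first lay 636 bp from a transcription start of *Degs1*, the second 428939 bp from the nearest start, and the third 5741 bp from the start of *Tmem170b*. In the first the sites lay far apart within the window, whereas in the other two they were close neighbours.

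At 18 of the co-bound sites an ETS and a CEBP site shared a base, so that GGAAGT ran directly into the CEBP site. This pattern was noticed in the data and is given as a description. The 4 copies nearest to a PU.1 centre of PU.1+ cells, among those outside exons, are shown on the strand that reads GGAAGT, with the joined sites in capitals and 10 bases on either side.
Within Gtf2h3, chr5:124582756-124582788, plus strand: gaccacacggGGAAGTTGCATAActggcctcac
Mbnl1 promoter, chr3:60473005-60473037, minus strand: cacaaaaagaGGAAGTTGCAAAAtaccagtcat
Site near Rapgef2, chr3:79288265-79288297, minus strand: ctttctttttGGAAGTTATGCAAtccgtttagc
Intergenic site, chr15:63613293-63613325, minus strand: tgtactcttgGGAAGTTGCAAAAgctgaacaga
The joined sites lay 7.5 bp, 11.5 bp, 11.5 bp and 18.5 bp from that centre, in the same order. Of the 18, 11 lay within 40 bp of it and 3 were at promoters. No other spacing up to 60 bp occurred more often among the 313 ETS and CEBP pairs within that distance, and the next most frequent spacings each occurred 7 times. The joined pair was present in 1.14% of the co-bound sites, in 1.09% of new PU.1 peaks at retained CEBPA sites, in 0.496% of constitutive CEBPA sites without PU.1, and in 0 of the 1051 constitutive PU.1 sites without CEBPA.

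Those last 3 sets were used for comparison throughout. Constitutive PU.1 sites without CEBPA were shared PU.1 peaks that overlapped no CEBPA peak. New PU.1 peaks at retained CEBPA sites were 2027 peaks of PU.1+ cells that overlapped a CEBPA peak in both lines and no PU.1 peak of PU.1− cells. Constitutive CEBPA sites without PU.1 were 13502 CEBPA peaks shared by the lines and overlapping no PU.1 peak. A further 340 shared PU.1 peaks overlapped CEBPA in 1 line alone and were in none of these sets.

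The first question was how closely the calls coincided. CEBPA centres hardly moved between the lines, with a median distance of 11 bp, and 67.9% of them lay within 20 bp of each other. PU.1 centres moved more, by a median of 25 bp, and 43.4% lay within 20 bp. The PU.1 and CEBPA centres of the same line were a median of 45 bp apart in PU.1+ and 43 bp in PU.1− cells. All 4 centres together spanned a median of 75 bp, from 2 bp to 645 bp. These values lie inside the window that the rule allows.

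**Figure D1:**
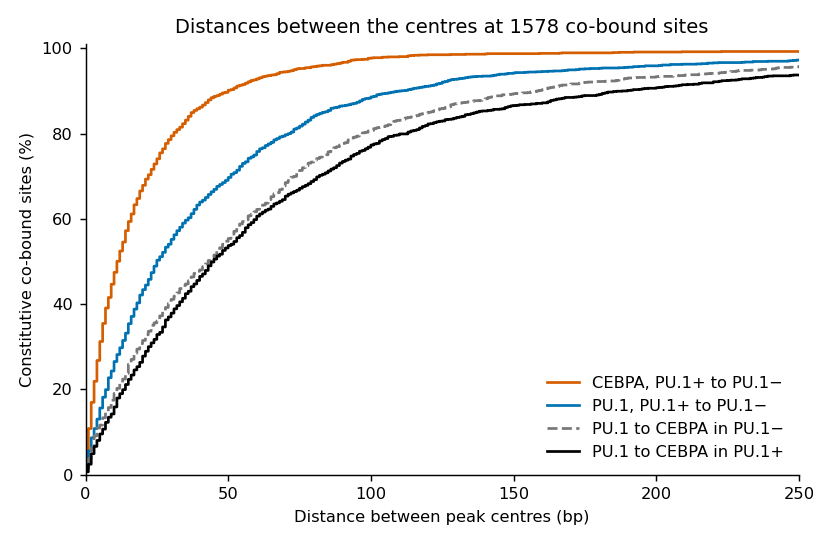
Cumulative share of the 1578 co-bound sites (vertical axis, %) with 2 given centres within a distance in bp (horizontal axis, drawn to 250 bp), with 1 line for each pair of libraries. The CEBPA pair rises fastest and the PU.1 to CEBPA pairs slowest, with medians of 11 bp for CEBPA, 25 bp for PU.1, and 43 bp and 45 bp between the factors.

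The called PU.1 and CEBPA centres were closer together at the co-bound sites than at new PU.1 peaks at retained CEBPA sites. The rule used these same coordinates, so the distances and differences of this paragraph are a description only. Centres of both factors lay within 50 bp in 53.7% of the co-bound sites and in 43.9% of new PU.1 peaks at retained CEBPA sites, a difference of 9.88 percentage points (95% Newcombe interval 6.60 to 13.1). PU.1 centres of the 2 lines coincided within 20 bp less often than at constitutive PU.1 sites without CEBPA, where 49.7% did so (difference −6.26 points, −10.1 to −2.37). CEBPA centres coincided to a like extent with and without PU.1, with 67.9% against 67.2% (difference 0.673 points, −1.80 to 3.07).

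The rule drew a line through a graded range of overlaps. The members just inside it overlapped their deciding CEBPA peak of PU.1− cells by 2 bp, 4 bp and 7 bp. The nearest misses were PU.1 peaks 1 bp and 4 bp away from a CEBPA peak of PU.1+ cells and 18 bp away from one of PU.1− cells. Most members were far from this limit, since the smallest of their overlaps had a median of 335 bp and was under 100 bp in 78 of them. Among 2293 PU.1 peaks that missed exactly 1 list, counted with 1 chromosome left out, 19 had the missing peak within 100 bp.

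Sequence was not used by the rule. The comparison sets, however, differ from the co-bound sites by a call of PU.1 or of CEBPA. A difference in the motif of that same factor goes with this choice and is given as a description. Sites were counted as exact matches on both strands, with GGAAGT for ETS, GAGGAAGT for a PU.1-type site, CAGGAAGT or CCGGAAGT for an ETS1-type site, TTGCNNAA for CEBP, TGTGGT or TGCGGT for RUNX, and TGACTCA or TGAGTCA for AP-1. The PU.1-type and ETS1-type sites are ETS sites with particular bases in front, so they are counted in both. For background, windows of the same 80 bp were read on both sides of each centre, at a distance of 2000 bp.

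At the PU.1 centre of PU.1+ cells, 655 co-bound sites (41.5%, 39.1–44.0%) had an ETS site in the central 80 bp, against 4.59% of flanking windows. A CEBP site was present there in 288 (18.3%, 16.4–20.2%), against 3.58% of flanking windows. Both were found in 97 (6.15%, 5.01–7.45%) and neither in 732 (46.4%, 43.9–48.9%). RUNX sites were also present in 288 (18.3%, 16.4–20.2%), against 7.54%, and some of these held a CEBP site too. AP-1 sites were present in 68 (4.31%, 3.36–5.43%), against 1.49%. IRF sites, the interferon-response sequence, were present in 1.71% (1.13–2.48%), with 0.951% in flanking windows. Each of these shares lay above its flanking value, with the largest excess for ETS and the smallest for IRF. GATA sites, AGATAA or TGATAA, went the other way, with 3.93% (3.03–5.01%) against 8.37% of flanking windows.

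At the CEBPA centre of PU.1+ cells the order of the motifs turned over. CEBP sites were present in 512 (32.4%, 30.1–34.8%) and ETS sites in 403 (25.5%, 23.4–27.8%). RUNX sites, at 18.2% (16.3–20.2%), were as frequent as at the PU.1 centre. When each factor was scored at its own centre, 195 co-bound sites (12.4%, 10.8–14.1%) had an ETS site at PU.1 and a CEBP site at CEBPA. A further 460 (29.2%, 26.9–31.5%) had the ETS site alone, 317 (20.1%) the CEBP site alone, and 606 (38.4%, 36.0–40.9%) had neither. The share with both was 12.1% (9.18–15.5%) where the centres lay up to 20 bp apart and 16.4% (10.8–23.5%) where they lay more than 200 bp apart, with intervals that overlapped.

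The most enriched 8-base sequences named the same families. At the PU.1 centre they were AGGAAGTG (in 18.9% of the co-bound sites and 0.349% of flanking windows), CCACTTCC (11.9% and 0.380%), ACTTCCTC (12.3% and 0.602%), AGAGGAAG (11.2% and 0.570%) and GGAAGTGA (8.81% and 0.349%), which overlap each other around the ETS core. At the CEBPA centre AGGAAGTG again came first (10.3% and 0.507%), followed by CCACTTCC and ACTTCCTG. The first CEBP words were TTGCACAA (6.21% and 0.317%) and TTGAGCAA (5.13% and 0.285%), which came next.

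**Figure D2:**
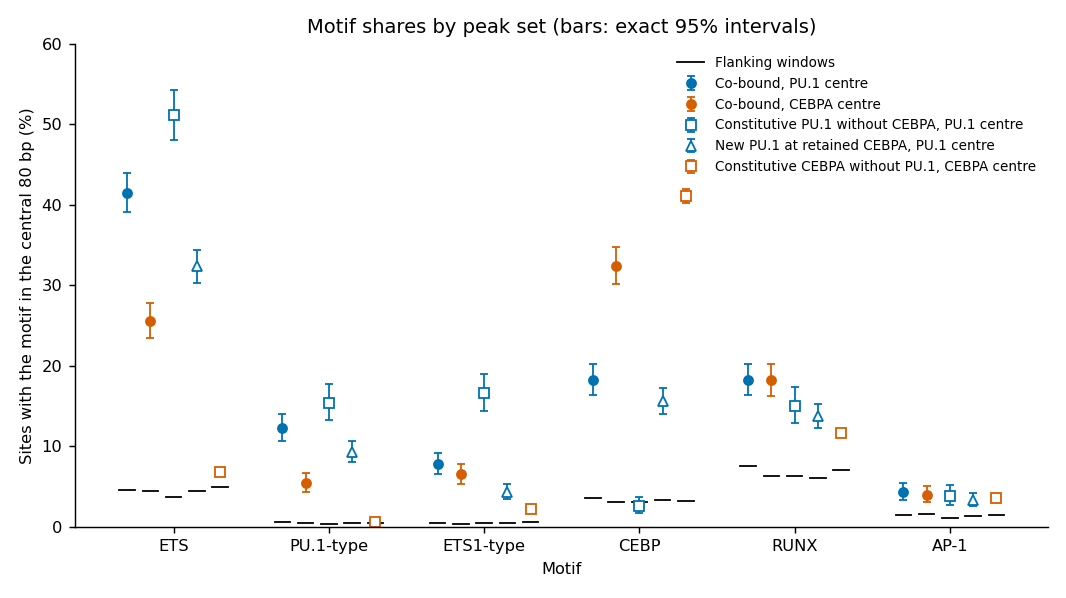
Share of sites (vertical axis, %) with a motif (horizontal axis) in the central 80 bp, for the co-bound sites at the PU.1 and CEBPA centres of PU.1+ cells and for the 3 comparison sets, with exact 95% intervals and the share of flanking windows as a short black line. The co-bound sites lie between the PU.1 sites without CEBPA (51.2%) and the new PU.1 peaks (32.4%) for ETS, and below the CEBPA sites without PU.1 (41.1%) for CEBP.

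Compared with constitutive PU.1 sites without CEBPA, the co-bound sites had fewer ETS sites and more CEBP sites. ETS sites were present in 51.2% of the former (difference −9.68 percentage points, −13.5 to −5.79) and CEBP sites in 2.57% (difference 15.7 points, 13.5 to 17.8), which is no more than in their flanking windows (3.09%). The CEBP difference was 28.0 points (25.1 to 30.7) in the central 200 bp and 32.0 points (28.8 to 35.1) in the whole peak. The gap was of similar size for the ETS1-type site, present in 7.79% of the co-bound sites and 16.7% of the PU.1 sites without CEBPA (−8.86 points, −11.5 to −6.29). Outside promoters that gap was −10.3 points (−13.4 to −7.34), and at promoters, −4.71 points, its interval held 0 (−10.1 to 1.17). For the PU.1-type site the shares were 12.3% and 15.4% (−3.12 points, −5.89 to −0.444). For the other sites, the differences outside promoters were −9.58 points (−13.9 to −5.22) for ETS and 15.4 points (13.0 to 17.8) for CEBP. At promoters the CEBP difference was as large, at 15.3 points (10.1 to 21.4), whereas that for ETS, −7.28 points, had an interval that held 0 (−16.5 to 2.11). The RUNX difference of 3.22 points (0.289 to 6.06) held 0 in both of these places taken separately, with 1.86 points (−1.53 to 5.10) outside promoters and 5.73 points (lower bound −0.481) at them.

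Compared with new PU.1 peaks at retained CEBPA sites, the co-bound sites had more ETS sites, with 41.5% against 32.4% (9.15 points, 5.97 to 12.3), a difference of 5.40 points (2.26 to 8.54) when they were centred on PU.1 of PU.1− cells. The PU.1-type (12.3% against 9.27%), the ETS1-type (7.79% against 4.29%) and the RUNX site (18.3% against 13.7%) were each more frequent as well, by 3.02 points (0.985 to 5.10), 3.50 points (1.94 to 5.14) and 4.54 points (2.13 to 6.98). At the CEBPA centre the ETS difference was 8.47 points (5.77 to 11.2), while that for RUNX was 1.61 points, with an interval that held 0 (−0.871 to 4.13). The CEBP share did not differ in a stable way. It was higher by 2.66 points (0.203 to 5.16) around the PU.1 centres but lower, by −2.29 points (−5.37 to 0.828), around the CEBPA centres.

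Compared with constitutive CEBPA sites without PU.1, and with both sets centred on CEBPA, the co-bound sites had more ETS sites (25.5% against 6.80%, 18.7 points, 16.6 to 21) and fewer CEBP sites (32.4% against 41.1%, −8.68 points, −11.1 to −6.19). With the co-bound sites centred on PU.1, the CEBP difference was −22.9 points (−24.9 to −20.7). RUNX sites were more frequent by 6.54 points (4.64 to 8.59). CRE sites, the cAMP-response sequences TGACGTCA or TGACGCAA, were less frequent, at 1.01% against 2.58% (−1.56 points, −2.04 to −0.887). AP-1, IRF and E-box sites (CAGCTG or CAGATG for the last) differed from none of the 3 sets by an interval that left out 0.

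The position of the sites under each library's own centre was examined next. An ETS site lay within 20 bp of the centre at 30.4% (28.1–32.7%) of the co-bound sites for PU.1 in PU.1+ cells and at 25.9% (23.7–28.1%) for PU.1 in PU.1− cells. For CEBPA the corresponding shares were 14.5% (12.8–16.3%) and 15.2% (13.5–17.1%). CEBP sites showed the opposite order, with 24.0% (21.9–26.1%) and 23.5% (21.4–25.7%) for CEBPA, and 10.8% in each line for PU.1. RUNX sites lay within 20 bp of all 4 centres at like shares, between 10.1% and 10.6%.

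**Figure D3:**
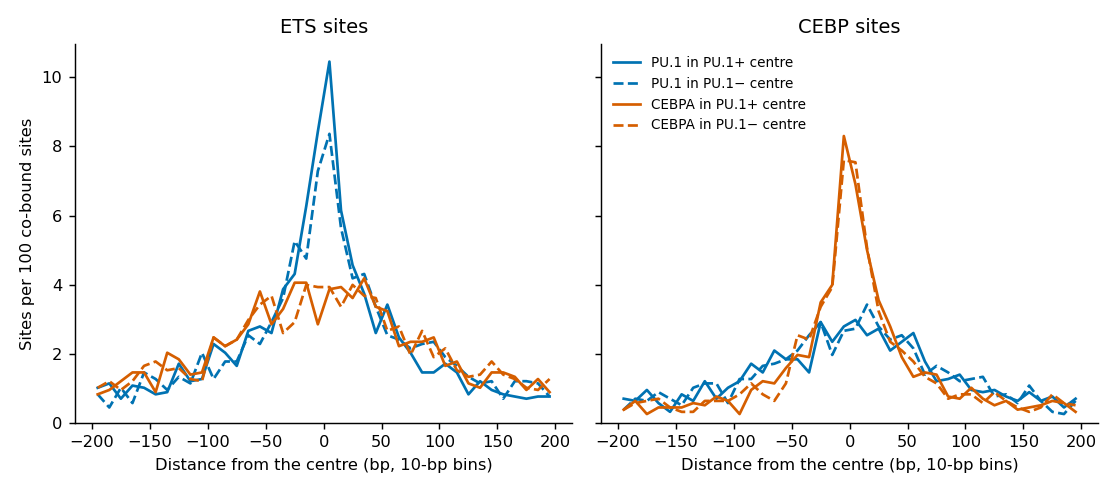
Number of ETS sites (left) and CEBP sites (right) per 100 co-bound sites (vertical axis) in 10-bp bins by distance from each library's own centre (horizontal axis, bp). ETS sites peak at the PU.1 centres, at 10.5 per 100 in the highest bin for PU.1+, and CEBP sites at the CEBPA centres, whereas the profile of each motif around the other factor is broad and low.

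Within single co-bound sites, the PU.1 centre was the nearer of the pair to the ETS site in 67.7% (64.8–70.5%) of cases in PU.1+ cells and 64.7% (61.7–67.6%) in PU.1− cells. It was the nearer to the CEBP site in 28.9% (25.8–32.2%) and 28.3% (25.2–31.5%). There were 208 co-bound sites in each line with a single ETS and a single CEBP site at least 20 bp apart and with centres that differed. The centres of PU.1 and CEBPA followed the order of their sites along the chromosome in 153 of these in PU.1+ (73.6%, 67.0–79.4%) and 148 in PU.1− cells (71.2%, 64.5–77.2%).

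Among co-bound sites with a PU.1-type or an ETS1-type site, the PU.1 centres of the lines leaned towards different kinds of site. Such sites were in 19.1% and 19.7% of the co-bound peaks of PU.1 in PU.1+ cells. For ETS sites of any kind, PU.1+ was the nearer in 52.7% (49.6–55.7%), an interval that held 50%. The study's motif search ranked a PU.1 motif first in the PuER PU.1 peaks and an ETS1 motif first in those of the empty vector. The contrast below uses the same libraries and is not independent of that result. Where a PU.1-type site was present, the PU.1+ centre was nearer to it at 193 places and the PU.1− centre at 114, so that PU.1+ was the nearer in 62.9% (57.2–68.3%). Where an ETS1-type site was present, the order was the other way, with 132 places against 191, or 40.9% (35.5–46.4%). The difference between these shares was 22.0 percentage points (14.2 to 29.4), and it was 23.2 points (15.1 to 30.8) among peaks with a single such site. The PU.1-type site lay a median of 19 bp from the PU.1+ centre and 35 bp from the PU.1− centre, whereas the ETS1-type site lay 53 bp and 38.5 bp away. CEBPA centres, scored with the 274 PU.1-type and 311 ETS1-type sites nearest to them in the CEBPA peaks, showed shares near 50%, with PU.1+ the nearer in 51.5% (45.3–57.7%) for the PU.1-type and 52.0% (46.2–57.7%) for the ETS1-type site.

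At constitutive PU.1 sites without CEBPA the corresponding shares were 61.0% (54.2–67.5%) and 49.7% (43.8–55.5%), a difference of 11.3 points (2.63 to 19.8). The share for the ETS1-type site was thus lower at the co-bound sites by −8.79 points (−16.5 to −0.934), but with peaks of a single site the interval held 0 (−7.09 points, −15.2 to 1.18). The PU.1-type shares of both sets differed by 1.86 points (−6.47 to 10.3). The ratio of PU.1-type to ETS1-type shares was 1.58 (1.25–1.99) when the co-bound sites were centred on PU.1 in PU.1+ cells, and 0.987 (0.783–1.24) when they were centred on PU.1 in PU.1− cells. It was 1.46 (1.14–1.86) when peaks had to share 50% or more of their length. It was 1.24 (0.945–1.63) among sites with centres within 100 bp, 1.05 (0.882–1.25) in the central 200 bp and 0.968 (0.823–1.14) in the whole peak. The intervals around 1.58 and 1.46 left out 1, and the others held 1. Because GAGGAAGT alone is set against CAGGAAGT and CCGGAAGT together, 1 is not a neutral value, and no background ratio was computed.

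**Figure D4:**
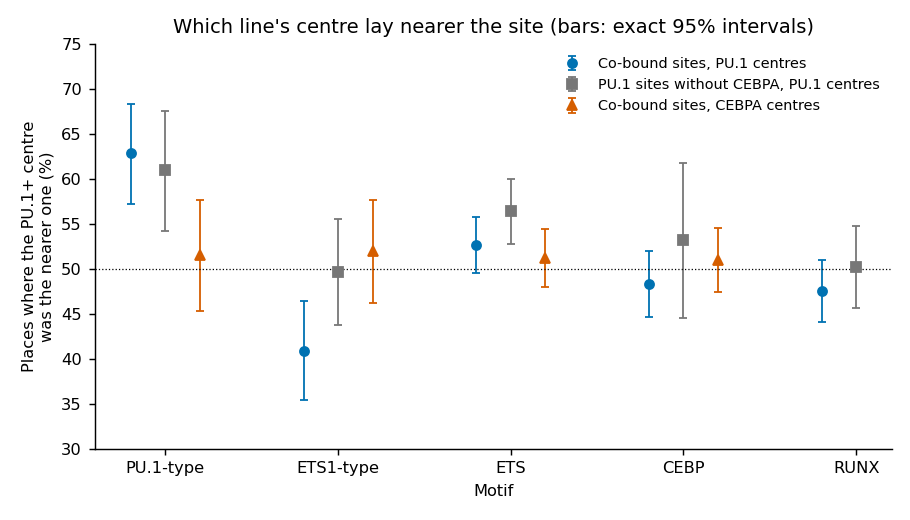
Share of places (vertical axis, %, from 30 to 75) where the centre of PU.1+ cells was nearer than that of PU.1− cells to the site named on the horizontal axis, with exact 95% intervals and a dotted line at 50%. For the PU.1 centres of the co-bound sites the PU.1-type site stands at 62.9% and the ETS1-type site at 40.9%, and the CEBPA centres stand near 50%.

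A PU.1-type and an ETS1-type site, 1 of each, occurred together in 34 co-bound sites. In 14 of these PU.1+ was the nearer to the PU.1-type site and PU.1− to the ETS1-type site, in 9 neither held, and in 11 only 1 of these held. These 34 were counted in both shares above. The stretch between the sites is shown for 2 of the 14, picked because the combined shift was among the largest. Capitals mark the sites, on the plus strand of mm10.
Intergenic site, chr15:67481782-67481889: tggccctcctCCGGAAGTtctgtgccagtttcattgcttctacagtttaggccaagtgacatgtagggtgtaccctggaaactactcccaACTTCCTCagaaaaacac
Site near Gm2310, chr15:8512031-8512142: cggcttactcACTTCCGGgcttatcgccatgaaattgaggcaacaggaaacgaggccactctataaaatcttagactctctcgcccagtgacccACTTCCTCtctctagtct
In the first, the PU.1+ centre lay 12 bp from the PU.1-type site, on the right, and the PU.1− centre lay 11 bp from the ETS1-type site, on the left, with 80 bp from the middle of one site to that of the other. In the second, the PU.1+ centre lay 1 bp from the PU.1-type site and the PU.1− centre 19 bp from the ETS1-type site.

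The co-bound sites were mostly distal. Promoter sites, with no more than 1000 bp between the centre and any protein-coding transcription start, numbered 183 (11.6%, 10.1–13.3%). Another 684 (43.3%, 40.9–45.8%) were inside genes, 49 of them with the centre in an exon, and 711 (45.1%, 42.6–47.6%) were between genes. The median distance to the nearest start was 14686 bp, and 182 sites (11.5%, 10.0–13.2%) were more than 100 kb from any start. Constitutive PU.1 sites without CEBPA were at promoters more often, at 25.4% (difference −13.8 points, −16.9 to −10.8), as were constitutive CEBPA sites without PU.1, at 19.1% (−7.47 points, −9.11 to −5.68). New PU.1 peaks at retained CEBPA sites were at promoters in 11%, with an interval of the difference that held 0 (0.595 points, −1.47 to 2.71). Base composition differed along with placement. The median GC content was 46.4% at the co-bound sites and 48.5% at the PU.1 sites without CEBPA, and at promoters it was 52.0% and 57.0%. The part of GC content in the motif differences was not tested. Repeat-masked sequence covered more than 50% of the peak at 11 co-bound sites (0.697%).

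New PU.1 peaks often lay close by. A PU.1 peak called in PU.1+ cells alone had its centre within 10 kb at 619 co-bound sites (39.2%, 36.8–41.7%), and at 180 of these there was more than 1. The share was 33.3% at constitutive PU.1 sites without CEBPA (difference 5.93 points, 2.17 to 9.62) and 28.7% at constitutive CEBPA sites without PU.1 (10.5 points, 8.03 to 13.1). A CEBPA peak called in PU.1− cells alone was within 10 kb of 24.5% (22.4–26.7%) of the co-bound sites, which differed by 2.74 points (−0.578 to 5.97) from the PU.1 sites without CEBPA and by 2.68 points (an interval above 0, with an upper bound of 4.97) from the CEBPA sites without PU.1. Calls lost or gained in the opposite sense were rarer neighbours, with 9.51% (8.10–11.1%) for PU.1 peaks of PU.1− cells alone and 8.17% (6.87–9.64%) for CEBPA peaks of PU.1+ cells alone. How often each kind lies nearby also depends on how many such calls exist. For PU.1 the PuER list was the longer (15683 against 5288), and for CEBPA it was the shorter (20583 against 26119). The shares were not adjusted for this, so their order does not show a preference of the co-bound sites.

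Most of the co-bound sites had no other co-bound site close by, and no comparison with an even spread was made. Neighbouring sites were joined up to a fixed distance between centres, of which the largest joined was 12147 bp, and then 1435 stood alone, 122 formed 61 pairs, and 21 formed 7 runs of 3. The runs of 3 lay at *Fcgr2b* and *Fcrla* (Fc receptor genes), *S100a8* and *S100a9* (calprotectin subunits), *Vav3*, *Il17ra* (the receptor for interleukin 17), *Cx3cr1* (the fractalkine receptor of monocytes), *Fndc3b*, and *Dhrs3* with *Vps13d*. They spanned from 8945 bp at *Il17ra* to 17738 bp at *Dhrs3* and *Vps13d*. These genes are named because the runs were few and were seen first.

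Genes were assigned with GENCODE vM21, and promoters by distance, in place of the annotation and promoter database of the study. An intergenic site counted for its closest neighbour upstream and downstream, up to 50 kb away. A site inside a gene and outside promoters counted only for the genes it lay in. A co-bound site was assigned to 1373 of 21951 protein-coding genes, or 6.25%. Most of these genes, 1181, had 1 site, 146 had 2, 36 had 3 and 10 had 4 or more, with *Arhgap26* counted under 2 overlapping gene records that share sites. No gene lay within reach of 242 sites. The most sites were assigned to *Gm20388* (6 sites), a gene model of 4435 kb that runs over many other genes, followed by *Fcgr2b*, the inhibitory Fc receptor, and *Ssh2*, a cofilin phosphatase, with 5 each. *Arhgap26*, *Dock8*, *Fam49b*, *Fndc3b*, *Trps1* and *Vps13d* had 4 each. *Fcgr2b* is 17.9 kb long, whereas the other genes named after *Gm20388* measured 131 kb to 434 kb. Of the *Fcgr2b* sites, those at chr1:170959806-170960205 and chr1:170967563-170967962 lay inside the gene, and the others lay between genes.

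**Figure D5:**
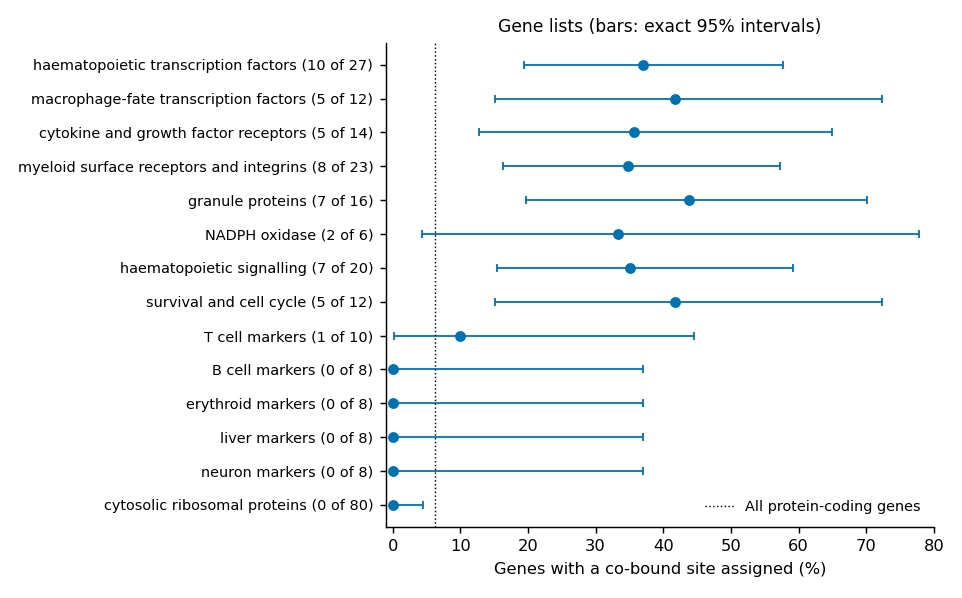
Share of the genes of each list with a co-bound site assigned (horizontal axis, %), with exact 95% intervals and the counts beside the list names. The dotted line is the share over all protein-coding genes, 6.25%. The myeloid and haematopoietic lists and the list for survival and cell cycle lie to its right, from 33.3% to 43.8%, with the interval of the NADPH oxidase list reaching across it.

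Gene lists for haematopoietic functions, and the list for survival and cell cycle, had a co-bound site at 33.3% to 43.8% of their genes. The share over all protein-coding genes was 6.25%. The survival and cell cycle list, which is not particular to blood cells, stood at 41.7%, within the range of the others. These lists also held many peaks of any kind. Between 58.3% and 100% of their genes had a PU.1 peak of PU.1+ cells, against 34.1% of all genes, and between 75% and 100% had a CEBPA peak, against 42.0%. Of the markers of other cell types, 1 of 10 T cell genes (*Tcf7*) and 0 of 8 each of the B cell, erythroid, liver and neuron genes had a co-bound site, where 0 of 8 allows a share of up to 36.9%. No gene of the 80 for cytosolic ribosomal proteins had one, which allows up to 4.51%, although 30 of them had a CEBPA peak. The lists are counted and not tested.

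Among haematopoietic transcription factors, 10 of 27 had a co-bound site. *Spi1*, which encodes PU.1, had 1, outside its exons and 681 bp downstream of a transcription start. It was the only place within 50 kb of the *Spi1* start with a peak of all 4 lists, among 3 PU.1 peaks of PU.1+ cells, 2 of PU.1− cells, and 5 and 6 CEBPA peaks of these lines. Relative to the PU.1+ centre there, the PU.1− centre lay 2 bp downstream and the CEBPA centres −36 bp (PU.1+) and −39 bp (PU.1−) away. *Cebpa* had 1 as well, 7747 bp downstream of its start, with the other centres 2 bp, 32 bp and 22 bp downstream of that of PU.1 in PU.1+ cells. The central 80 bp of these sites follow, on the plus strand, with RUNX and CEBP sites in capitals.
Spi1, chr2:91083049-91083128: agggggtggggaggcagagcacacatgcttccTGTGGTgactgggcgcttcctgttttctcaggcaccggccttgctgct
Cebpa, chr7:35127010-35127089: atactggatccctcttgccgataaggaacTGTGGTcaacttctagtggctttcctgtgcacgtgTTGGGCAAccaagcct
Neither window had a GGAAGT site. The *Spi1* window held a RUNX site, and the *Cebpa* window a RUNX and a CEBP site. The absence of GGAAGT says only that these letters are not in these windows.

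*Etv6* and *Runx1*, both recurrent partners in leukaemic fusions, had 2 sites each, and those at *Etv6* had no ETS, CEBP, RUNX or AP-1 site in the central 80 bp. *Cebpd*, a CEBPA relative of granulocytes, had 1 site with 2 ETS sites, where the 4 centres spanned 12 bp, 1708 bp downstream of a start with its centre in an exon. *Ets1*, an ETS factor of lymphocytes, had 1 site with 1 ETS site, and the other genes with a site were *Gfi1*, *Ikzf1*, *Myb* and *Zeb2*. Of the other genes that the study examines, *Elf1*, *Lyl1* and *Cd14* had no co-bound site within 50 kb of the start. Near *Evi2a* there was 1, at chr11:79523507-79523906, 6902 bp downstream of the *Evi2a* start and at the promoter of the neighbouring gene *Evi2b*. Relative to PU.1 of PU.1+ cells its other centres lay 65 bp, 88 bp and 78 bp further along, and it had no ETS or CEBP site in the central 80 bp.

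Transcription factors tied to macrophage fate had a co-bound site in 5 of 12 cases, all distal. They were *Batf3*, *Egr1*, *Fos*, *Junb* and *Nr4a1*, of which the last 4 are immediate-early genes. Each of the 5 sites had 1 ETS site and no CEBP site in the central 80 bp. The site of *Junb* lay 1200 bp upstream of its start and that of *Nr4a1* 10078 bp upstream. No co-bound site was assigned to *Irf8* or *Klf4*. Sites inside the long gene model *Gm20388* were not passed on to genes nearby, for example those at chr8:120686072-120686471 and chr8:120779105-120779504. This bears on *Irf8*, so its lack of a site cannot be read, and 5 of 12 may be too low. Lack of an assignment therefore does not show that no co-bound site lay near a gene.

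Among receptors for cytokines and growth factors, 5 of 14 had a co-bound site. *Il6ra* (interleukin 6 receptor) had 2, and *Csf3r* (the G-CSF receptor), *Flt3*, *Ifngr2* and *Tnfrsf1b* had 1 each. That of *Csf3r* lay 6591 bp upstream of the start and held 3 CEBP sites and 1 ETS site in the whole peak, all of them outside the central 80 bp. The site of *Ifngr2*, a subunit of the interferon-gamma receptor, was at the promoter, 423 bp upstream, with a CEBP site in the central 80 bp. *Csf1r* and *Kit* had none.

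Surface receptors and integrins of myeloid cells had a co-bound site in 8 of 23 annotated cases. *Fcgr2b* had 5 sites, of which 4 held an ETS site in the central 80 bp and the other a CEBP and a RUNX site. One of the 5 was shared with *Fcgr4*, an activating Fc receptor. *Cd33*, a sialic acid-binding lectin, had 2, at 300 bp and 1796 bp upstream of the start. *Fcgr3* had 1, at 11 bp from a start and in an exon, with a CEBP site, and *Cd53*, *Clec5a*, *Itgb2* and *Ptprc* had 1 each. The centres at the *Clec5a* site spanned 16 bp, whereas at *Cd53* they spanned 309 bp, with the PU.1 centre of PU.1+ cells apart from the other three.

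Genes for granule proteins had the highest share of the lists, 7 of 16 (43.8%, 19.8–70.1%), by a small margin. The macrophage-fate list and the survival and cell cycle list each stood at 41.7% (15.2–72.3%), with intervals that overlapped. *S100a8* had 3 sites and *S100a9* 2, both of the latter shared with *S100a8*. *Mmp8* (neutrophil collagenase) had 2, and *Elane* (neutrophil elastase), *Prtn3* (proteinase 3), *Lcn2* (lipocalin 2) and *Lyz1* (lysozyme) had 1 each. The promoter sites lay close to the starts, at 6 bp for *Elane*, 64 bp for *S100a8* and 111 bp for *Mmp8*, all upstream. The windows of *S100a8* and *Mmp8* are shown because these promoter windows lay clear of exons, with ETS or RUNX sites in capitals on the plus strand.
S100a8 promoter, chr3:90668874-90668953: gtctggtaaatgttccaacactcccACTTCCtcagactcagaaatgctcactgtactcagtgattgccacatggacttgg
Mmp8 promoter, chr9:7558305-7558384: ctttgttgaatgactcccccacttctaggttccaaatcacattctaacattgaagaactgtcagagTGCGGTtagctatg
At *S100a8* the PU.1− centre lay −15 bp from that of PU.1+, and the CEBPA centres 52 bp (PU.1+) and 40 bp (PU.1−) downstream, towards the gene. No CEBP site was in that peak, although both lines had a CEBPA call there. *Mpo* and *Ctsg* had no co-bound site.

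The remaining lists held genes of signalling and survival. In the NADPH oxidase, which makes the respiratory burst, *Ncf1* and *Ncf4* of 6 genes had 1 site each, and that of *Ncf4* lay 20 bp upstream of a start with 2 ETS sites. Among signalling genes 7 of 20 had a site. *Prkcd*, a protein kinase C, had 3, each with 1 or 2 ETS sites in the central 80 bp, *Nfkbia*, an inhibitor of NF-κB, had 2 without an ETS site there, and *Fgr*, *Inpp5d*, *Lyn*, *Plcg2* and *Ptpn6* had 1. Of the genes for survival and cell cycle, 5 of 12 had a site. *Ccnd3* (cyclin D3) had 2, and *Bcl2*, *Bid*, *Cdkn1a* and *Mcl1* had 1 each, and all 6 of these sites had 1 ETS site and no CEBP site in the central 80 bp. The 4 centres at *Bid* spanned 13 bp and those at *Mcl1* 22 bp, against 114 bp at *Bcl2*.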

How the data were processed

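Peaks of 4 ChIP-Seq libraries were analysed, for PU.1 and CEBPA in PU.1− and PU.1+ cells. Per the submitters' processing notes, the authors used mm10, Bowtie2 2.0.6 and MACS2 2.0.10, and they deposited peak coordinates of 400-bp intervals without scores or counts, so depth is unknown and no p-value was computed. The calling threshold is not given in the sources used here. H3K27Ac and IgG libraries were not analysed here.

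Peaks were taken as shared from an overlap of 1 bp upwards. Sequence came from GRCm38, genes from GENCODE vM21. Shares have exact (Clopper-Pearson) and differences of shares Newcombe 95% intervals. A difference was called where its interval left out 0. Named genes were the 10 with most co-bound sites, up to 6 of each fixed list with most sites, and 6 genes that the study examines. Genes beyond these are named to complete a count. Members, motifs and lists were chosen with earlier results of these data known. Alternatives were other overlap rules, anchor libraries, windows and distances. Overlap, motif and gene steps recovered 100% of simulated classes, and bedtools gave the same 1578 sites. Python 3.11.15, numpy 2.4.6, scipy 1.17.1, pysam 0.24.0, samtools 1.23.1 and matplotlib 3.10.9 were used.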

Additional observations from a re-analysis of the deposited data

How the results depend on the processing

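Of 93 values under other settings, 69 were scored as unchanged. This meant within the interval for shares, medians and ratios, the same direction and side of 0 for differences, and similar size for counts. Such counts included 1092 co-bound sites and 1004 assigned genes with centres within 100 bp, against 1578 and 1373 as reported. Limiting the lists to chromosomes 1 to 19, X and Y changed no value, because all co-bound sites already lay on these chromosomes. Values under this setting could not move, but they count among the 69 and, for differences, among the 37 given below. The windows moved most. In the central 200 bp and the whole peak, ETS sites were present in 58.2% and 65.9% of the co-bound sites, CEBP sites in 34.7% and 44.9%, both in 18% and 26.6%, and the PU.1-type to ETS1-type ratio was 1.05 and 0.968. Centred on PU.1 of PU.1− cells, the ETS share was 37.8% and the ratio 0.987. With centres within 100 bp, the CEBP share was 22.4%, that with both 7.69%, the ratio 1.24 and the median PU.1 to CEBPA distance 29 bp, which was 39 bp with an overlap of at least 50%. Promoters within 500 bp or 2500 bp held 8.87% or 19.5%, and a new PU.1 peak lay within 5 kb or 20 kb of 25.2% or 55.6%. Of 42 differences from the comparison sets, 37 kept their direction and side of 0. The other 5 were all the CEBP difference from new PU.1 peaks at retained CEBPA sites, which was 2.22 points with the 50% overlap and 1.18 points with centres within 100 bp, both with intervals that held 0, and was reversed in the central 200 bp (−0.645), in the whole peak (−2.40) and around CEBPA centres (−2.29). The cause was not tested. The CEBPA-centred, outside-promoter, PU.1-centred and 1-site-per-run comparisons were chosen after the data were seen. No paired analysis was possible because there was 1 library for each antibody and line, without replicate numbers. Absence from a list may reflect its unknown depth and threshold.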

Other observations

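Co-bound sites were also looked for near microRNA genes. Among 1005 hairpins in the RefSeq table, 23 had a co-bound site within 10 kb, and 21 sites were involved. *Mir223*, a microRNA abundant in neutrophils and monocytes, had one 3026 bp away, between genes on chromosome X. *Mir142*, expressed across blood cells, and *Mir142b*, annotated at the same place, shared a site 7196 bp and 7173 bp away. *Mir3092*, inside *Fndc3b*, was the nearest, at 205 bp. Hairpins nearer to a site than *Mir142* included *Mir192* (3995 bp) and *Mir194-2* (4199 bp), which shared a site, and *Mir200c* (5346 bp) and *Mir141* (5751 bp), which shared another. The list was thus mixed, and the hairpins named first do not stand for it. These distances are values, and the share of other sites near hairpins was not computed.

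The share of PU.1 peaks of PU.1+ cells that were co-bound ranged among chromosomes from 4.66% on X (16 of 343) to 12.3% on chromosome 1 (174 of 1413). These values were looked at after the other results and were not tested.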
